A study of Mus musculus with 2 samples.

Results

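The 43 genes described here encode proteins of DNA repair and of the signalling that follows DNA damage. They were chosen by symbol, without use of any measured value: genes of the Fanconi pathway, homologous recombination, end joining, mismatch, nucleotide and base excision repair, and the damage kinases with p53 and its regulators. All 43 symbols were listed in both count tables, which hold 22609 genes, and all 43 reached at least 1 CPM, the TMM-scaled count relative to the library's total in genes, in at least 1 library. Fanca and Fancd2 reached it in DKO alone. The libraries were made from total RNA of CD8+ regulatory T cells, CD8+ T cells known for restraining other immune cells, sorted from spleens of naive mice aged 3 months. One library came from mice labelled Tgfbr2-/-Eomes-/-, called DKO here, a genotype of deletions in the genes of a TGF-beta receptor subunit and the T-box factor Eomes, and the other from wild-type (WT) mice. The labels do not say which Cre or promoter was used for the deletions or whether animals were pooled. The markers sorted on are not spelled out in them. Each genotype was sequenced as 1 library, so there were no replicates and no p-values are given. The ranges in brackets are exact 95% intervals for counting error alone, so they set these 2 libraries side by side and not the genotypes.

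Gene counts summed to 19661212 in the DKO library and 22307065 in the WT library, and the 43 genes took 26821 of the DKO counts and 33875 of the WT counts. Eomes had 180 CPM in DKO and 469 CPM in WT and was 2.61-fold lower, while Tgfbr2 had 244 CPM in DKO and 357 CPM in WT and was 1.46-fold lower. Counts over whole genes do not show whether the deleted exons were read. Cd8a was detected in both libraries, at 978 CPM in DKO and 998 CPM in WT, which does not show how pure the sorted cells were. Marker lists of 7 other cell types were also detected, and their summed levels are given beside the results they move with. In DKO the dendritic cell marker H2-Aa (1278 CPM) and the myeloid markers S100a9 (1066 CPM) and Lyz2 (1000 CPM) exceeded Cd8a. The other markers of those lists did not. In WT these 3 genes had 398, 261 and 495 CPM. In bulk RNA, fewer cells of a type and less RNA per cell cannot be told apart.

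Cells repair different lesions by different routes. Crosslinks between the strands stall replication forks and are handled by the Fanconi pathway, in which a core complex attaches ubiquitin to the FANCD2 and FANCI proteins, and the break that follows is mended by homologous recombination. Breaks outside replication are mostly closed by end joining, damaged single bases are replaced by excision repair, and the kinases ATM and ATR signal damage to CHEK2, CHEK1 and p53. Lymphocytes depend on these routes when they divide and when they rearrange their antigen receptor genes, and Fanconi and recombination genes are commonly expressed most in S phase and G2.

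In the DKO library 6 of the 43 genes were higher by 2-fold or more, with 1 outside the interval, and 0 were lower by as much. Of the 11735 genes of all kinds that reached 1 CPM, the same rule found 11.6% higher and 3.6% lower. The share of repair genes that were higher, 14.0%, was therefore near that of all genes. The 6 genes were Fanca, Fancd2, Rad54l, Brca1, Brip1 and Fanci, all of the Fanconi and recombination routes. At a limit of 1.5-fold, 8 genes were higher, with Chek1 and Rad51c added, against 17.7% of all genes, and 3 were lower (Chek2, Xrcc1 and Bard1), against 8.42% of all genes. Without a limit on size, the interval lay wholly above 1 for 11 genes (25.6%, against 35.8% of all genes) and wholly below 1 for 17 genes (39.5%, against 35.7% of all genes).

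The small differences depended on how the libraries were scaled. On the log2 scale the 43 ratios had a median of -0.09, beside 0.00 for all genes, and 25 of them lay below 0. Setting the scale by genes of the T cell receptor and its signalling moved the median of all genes by 0.22 and that of the 43 genes to 0.13, and 17 ratios then lay below 0. The 8 genes that changed sides were Fancb, Xrcc6, Msh6, Ercc2, Xpc, Ung, Atm and Atr. On that scale 20 intervals lay wholly above 1 (57.3% of all genes) and 9 wholly below it (17.5% of all genes). The intervals of Fancc, Fancg, Bard1, Palb2, Xrcc4, Xpc, Atm and Mdm2 then held 1, and that of Xpc also did with total counts. Those of Fancm, Rad50, Mre11a, Xrcc5, Xrcc6, Msh6, Ercc1, Ercc2 and Atr held 1 with TMM and lay wholly above it on that scale. The interval of Xrcc5 also lay wholly above 1 with total counts. The 6 higher genes were at least 2-fold higher under each of the 4 scalings tried, and Chek1 joined them only with T cell receptor genes.

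**Figure D1:**
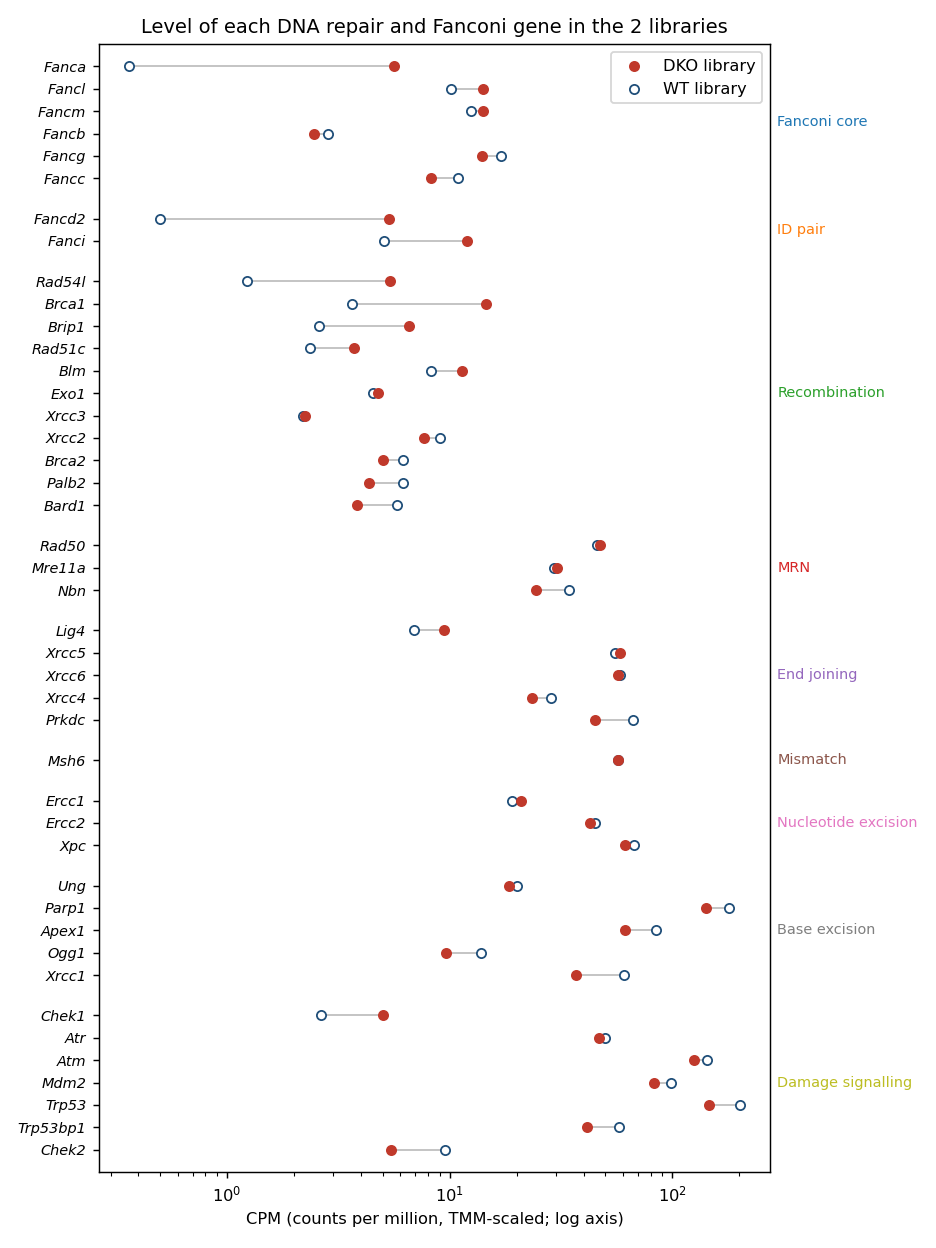
Level of each of the 43 genes in CPM on a log axis, filled points for the DKO library and open points for the WT library, grouped by role. Fanca and Fancd2 show the widest gaps, at 5.60 and 5.35 CPM in DKO against 0.365 and 0.501 CPM in WT. Gaps are narrower for the more abundant genes of end joining and excision repair. The widest of these is that of Xrcc1, at 37.0 CPM in DKO and 60.9 CPM in WT.

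Promoter letters are shown for 6 of the genes to set 2 pairs of related genes on opposite sides of an even ratio, Brca1 with Bard1 and Chek1 with Chek2, beside 2 of the higher genes, Fanci and Brip1. Each window runs 5′ to 3′ on the gene's strand from 250 bases before to 50 bases after the start of transcription, from RefSeq on build GRCm38.p6. Capitals mark letters of the E2F type. The 4 forms searched, on both strands, were TTCCCGC or TTCGCGC or TTGCCGC or TTGGCGC. E2F factors regulate many genes of S phase.

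Brca1 (chr11:101551906-101552205, minus strand): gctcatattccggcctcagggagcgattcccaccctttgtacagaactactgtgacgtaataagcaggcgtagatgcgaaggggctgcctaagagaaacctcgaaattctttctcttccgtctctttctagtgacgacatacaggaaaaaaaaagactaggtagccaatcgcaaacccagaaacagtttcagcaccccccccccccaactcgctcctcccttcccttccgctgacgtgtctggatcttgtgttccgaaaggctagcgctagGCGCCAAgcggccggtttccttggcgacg
Bard1 (chr1:71102923-71103222, minus strand): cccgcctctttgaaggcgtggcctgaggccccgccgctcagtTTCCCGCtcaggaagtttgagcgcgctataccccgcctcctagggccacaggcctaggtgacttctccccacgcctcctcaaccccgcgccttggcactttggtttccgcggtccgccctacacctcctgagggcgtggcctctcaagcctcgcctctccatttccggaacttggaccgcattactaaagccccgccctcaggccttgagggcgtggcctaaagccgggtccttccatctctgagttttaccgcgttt
Chek1 (chr9:36726609-36726908, minus strand): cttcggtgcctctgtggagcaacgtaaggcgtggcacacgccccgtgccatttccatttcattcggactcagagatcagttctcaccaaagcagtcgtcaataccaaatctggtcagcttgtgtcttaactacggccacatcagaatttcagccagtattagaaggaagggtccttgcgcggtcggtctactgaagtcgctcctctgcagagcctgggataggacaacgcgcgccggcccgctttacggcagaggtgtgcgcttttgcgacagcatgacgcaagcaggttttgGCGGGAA
Chek2 (chr5:110839733-110840032, plus strand): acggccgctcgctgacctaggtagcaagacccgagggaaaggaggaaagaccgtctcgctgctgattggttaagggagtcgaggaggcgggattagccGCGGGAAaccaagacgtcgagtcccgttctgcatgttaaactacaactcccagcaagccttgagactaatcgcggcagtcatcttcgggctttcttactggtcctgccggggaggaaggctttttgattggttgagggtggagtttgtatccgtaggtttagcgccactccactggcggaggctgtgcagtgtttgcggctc
Fanci (chr7:79392088-79392387, plus strand): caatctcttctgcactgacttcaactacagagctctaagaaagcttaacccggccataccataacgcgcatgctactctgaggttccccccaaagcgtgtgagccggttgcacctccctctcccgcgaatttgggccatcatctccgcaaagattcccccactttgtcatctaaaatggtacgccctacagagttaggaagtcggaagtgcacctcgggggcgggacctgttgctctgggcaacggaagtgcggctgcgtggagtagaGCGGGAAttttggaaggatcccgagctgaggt
Brip1 (chr11:86201144-86201443, minus strand): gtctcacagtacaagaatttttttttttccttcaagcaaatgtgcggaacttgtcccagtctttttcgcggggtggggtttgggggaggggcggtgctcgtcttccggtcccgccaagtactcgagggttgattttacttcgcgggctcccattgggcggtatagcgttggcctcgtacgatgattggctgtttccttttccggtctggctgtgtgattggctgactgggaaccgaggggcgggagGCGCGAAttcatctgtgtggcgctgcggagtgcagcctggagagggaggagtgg

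Letters of the E2F type were common in these promoters. Of the 43 genes, 36 had a promoter window in RefSeq, and 20 of the 36 (55.6%) held such letters in at least 1 window, beside 10.9% of all 27025 genes with a window and 19.8% of the 8415 that also reached 1 CPM. They were found in 3 of the 5 windowed genes that were at least 2-fold higher in DKO and in 17 of the other 31. Fancd2, also higher, had no window. By interval, they were in 7 of 10 genes wholly above 1 and in 6 of 14 wholly below it. So few genes do not settle whether these shares differ. Brca1, Fanci and Brip1 held them and so did Bard1 and Chek2, which were lower in DKO, while the windows of Fanca and Rad54l held none of the 4 forms. In Brca1, Fanci and Chek1 the match began 22, 19 and 44 bases past the start of transcription. In Brip1 it began 4 bases before the start, and in Bard1 and Chek2 farther out, 208 and 152 bases before it. The CCAAT letters were in 22 of the 36 genes (61.1%) and in 43.2% of the 8415 genes, GGGCGG (SP1 type) in 26 (72.2%) and 68.6%, and TTTGAA or TTCGAA (CHR type) in 3 (8.33%) and 16.3%. E2F type letters shared bases with CCAAT in Ercc2 and with GGGCGG in Rad51c. A match describes letters in a window and not a site that is bound.

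Of the 6 genes of the Fanconi core complex, 1 was past the 2-fold limit, which 11.6% of all genes passed upward and 3.6% downward. Fanca, a subunit that joins the core complex through FANCG, had 112 counts in DKO and 8 in WT, or 5.60 CPM against 0.365 CPM, and was 14.5-fold higher (7.53 to 36.5). Its count per Fancg count was 0.401 in DKO and 0.0216 in WT, an 18.6-fold shift (8.90 to 44.8). The WT value rests on 8 counts, and with a prior count of 5 in place of 0.5 its log2 ratio was 3.28 in place of 3.86. Its exons overlap Zfp276 on the opposite strand, and Zfp276 itself had 31.1 CPM in DKO and 37.2 CPM in WT, a ratio of 0.837 (0.753 to 0.931). Fancl, the ubiquitin ligase of the complex, had 14.1 CPM in DKO and 10.1 CPM in WT and was 1.39-fold higher (1.16 to 1.67). Vrk2, which overlaps Fancl on the opposite strand, was 2.48-fold higher, and its part in the counts of Fancl was not tested.

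The other core genes lay near the median of all genes or below it. Fancc had 8.25 CPM in DKO and 10.8 CPM in WT and was 1.31-fold lower (1.07 to 1.61). Fancg, a scaffold for FANCA within the complex, had 14.0 CPM in DKO and 16.9 CPM in WT and was 1.21-fold lower (1.03 to 1.42). Both intervals lay below 1 with TMM, but held 1 with the scale of T cell receptor genes. Fancm, the translocase that brings the complex to DNA, had a ratio of 1.14 (0.960 to 1.35), and X-linked Fancb, with 49 counts in DKO and 62 in WT, a ratio of 0.868 (0.584 to 1.28). The median log2 ratio of the 6 core genes was -0.01 and was above 0 when the scale came from total counts (0.04) or from T cell receptor genes (0.21).

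Both genes of the pair that the core complex modifies were higher in DKO. Fancd2 had 107 counts in DKO and 11 in WT, or 5.35 CPM against 0.501 CPM, and was 10.2-fold higher (5.73 to 22). Fanci had 240 counts in DKO and 111 in WT, or 12.0 CPM against 5.06 CPM, and was 2.37-fold higher (1.89 to 3.00). Although their proteins form 1 complex, the transcripts were not in even balance. Per kilobase of exon, Fancd2 stood at 0.402 of the level of Fanci in DKO and at 0.0893 of it in WT, a 4.5-fold shift (2.29 to 9.64). Polg overlaps Fanci on the opposite strand and was 0.944 of its WT level in DKO (0.889 to 1.00), and the antisense gene that overlaps Fancd2 had 0 counts in both libraries.

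**Figure D2:**
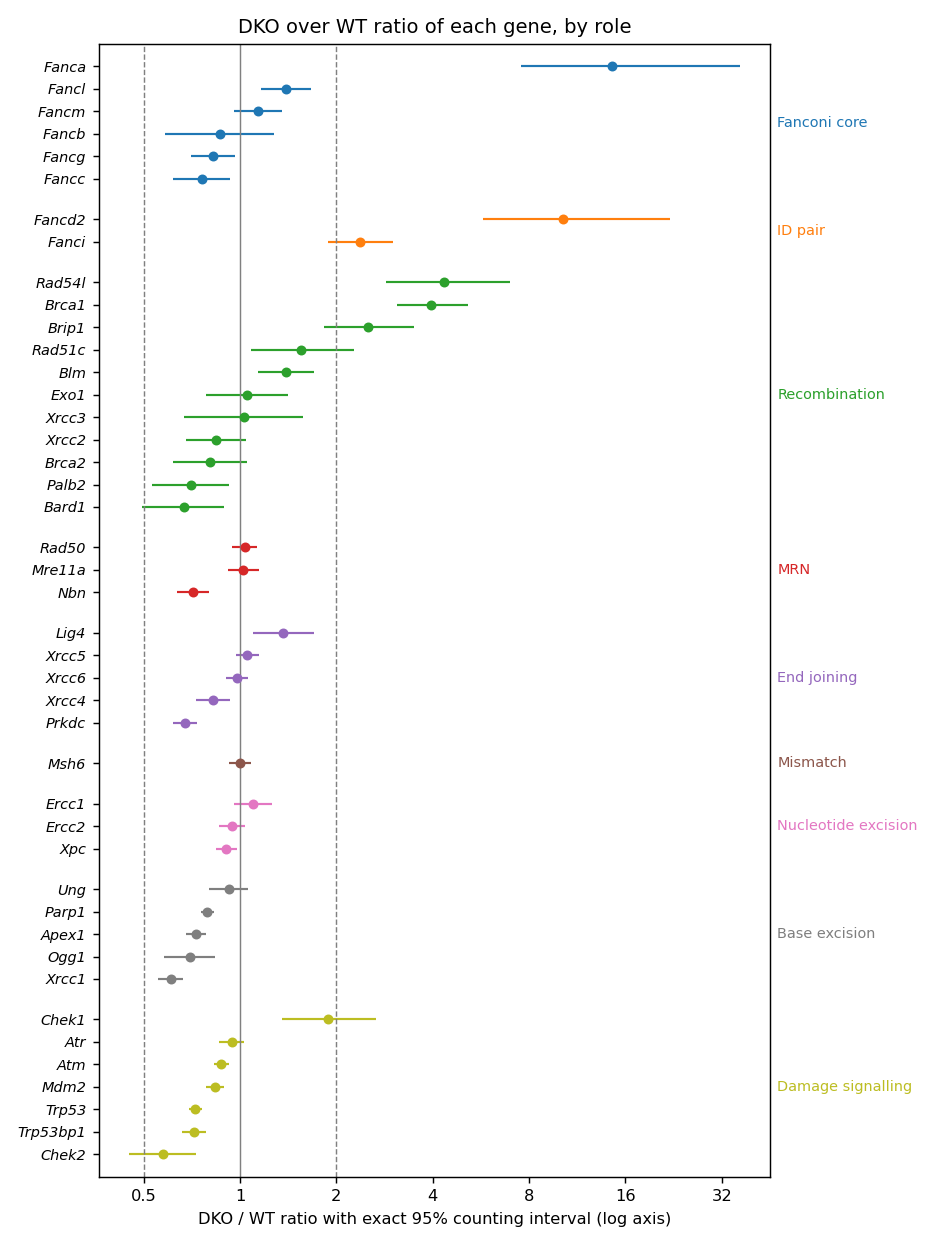
DKO over WT ratio of each gene on a log axis with its exact 95% counting interval, grouped by role, with lines at ratios of 0.5, 1 and 2. The 6 genes past 2-fold are Fanca, Fancd2, Fanci, Rad54l, Brca1 and Brip1, and the 5 base excision genes lie left of 1 under this TMM scaling, Ung no longer when T cell receptor genes set it.

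Recombination genes included 3 that were at least 2-fold higher and 0 that were at least 2-fold lower, of 11, beside 11.6% and 3.6% of all genes. Brca1, whose product opens the way to recombination at broken ends, had 290 counts in DKO and 80 in WT, or 14.5 CPM against 3.65 CPM, and was 3.96-fold higher (3.10 to 5.16). Rad54l, a motor protein that acts on chromatin during strand invasion, had 108 counts in DKO and 27 in WT and was 4.32-fold higher (2.86 to 6.96). Brip1, a helicase that binds BRCA1, had 131 counts in DKO and 57 in WT and was 2.51-fold higher (1.83 to 3.50). Exons of Rad54l overlap Lrrc41, whose ratio was 0.993 (0.910 to 1.08). Neither Brca1 nor Brip1 overlaps an exon of another annotated gene.

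Brca1 and its closest partners lay on opposite sides of an even ratio. Bard1, the obligate partner of BRCA1 in its ubiquitin ligase, had 77 counts in DKO and 127 in WT and was 1.5-fold lower (1.12 to 2.02). Palb2, which links BRCA1 to BRCA2, had 87 counts in DKO and 136 in WT and was 1.42-fold lower (1.08 to 1.89). Brca2, a mediator of strand exchange, had 100 counts in DKO and 136 in WT, a ratio of 0.807 (0.617 to 1.05), so its interval held 1. The intervals of Bard1 and Palb2 lay wholly below 1 with TMM, and held 1 with the scale of T cell receptor genes. The count of Brca1 per count of Bard1 was 3.77 in DKO and 0.630 in WT, a 5.98-fold shift (4.03 to 8.86) that no scaling of the libraries can change. Brca1 over Brca2 shifted 4.93-fold (3.39 to 7.16), while Brca2 over Palb2 shifted 1.15-fold (0.778 to 1.70).

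Among the other recombination genes, Blm, a helicase that dissolves crossed-over intermediates, was 1.39-fold higher (1.14 to 1.70), with 228 counts in DKO and 180 in WT. Rad51c, which acts in strand exchange with Xrcc2 and Xrcc3, had 74 counts in DKO and 52 in WT and was 1.56-fold higher (1.08 to 2.27). Xrcc2 had a ratio of 0.844 (0.679 to 1.05) and Xrcc3, with 45 counts in DKO and 48 in WT, a ratio of 1.03 (0.669 to 1.58). The interval of Xrcc3 is wide enough that a 1.5-fold difference was not detectable at this depth. Exo1, a nuclease that resects broken ends and also serves mismatch repair, had 95 counts in DKO and 99 in WT, a ratio of 1.05 (0.786 to 1.41).

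**Figure D3:**
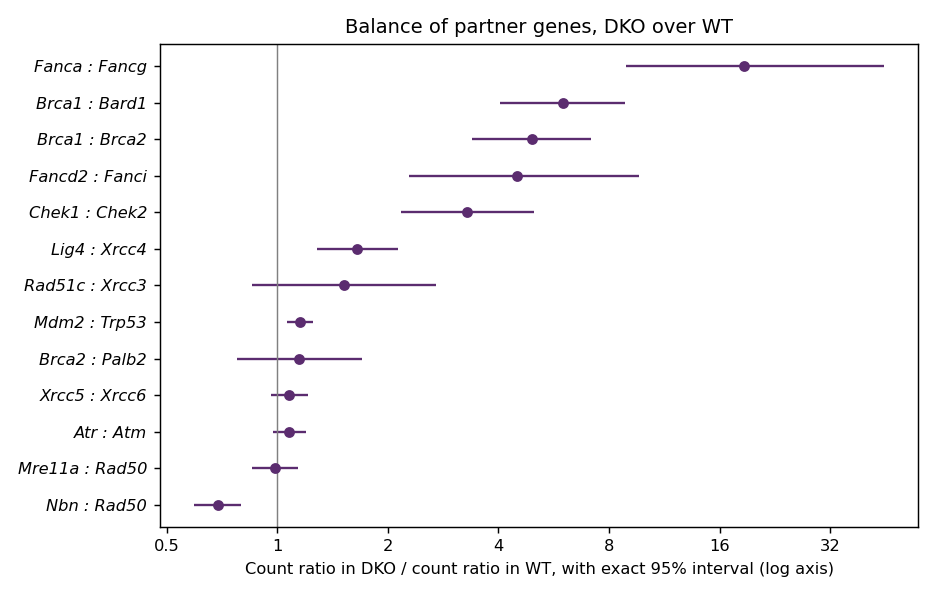
Change in the count ratio of 13 pairs of working partners, DKO over WT, on a log axis with exact 95% intervals. Fanca over Fancg, Brca1 over Bard1, Brca1 over Brca2, Fancd2 over Fanci and Chek1 over Chek2 lie to the right of 2, while Xrcc5 over Xrcc6, Mre11a over Rad50 and Atr over Atm have intervals that hold 1.

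Genes of the MRN complex, which senses broken ends and starts their resection, had more CPM than the Fanconi and recombination genes above. Per kilobase of exon this did not always hold, with Mre11a at 5.13 CPM and Fancg at 6.10 CPM in WT. Rad50 had 47.3 CPM in DKO and 45.6 CPM in WT, a ratio of 1.04 (0.948 to 1.13). Mre11a, the nuclease, had 30.3 CPM in DKO and 29.5 CPM in WT, a ratio of 1.02 (0.915 to 1.15). These intervals leave no room for a 1.5-fold difference between the libraries, and the balance of Mre11a over Rad50 was 0.988 (0.855 to 1.14). Nbn, the subunit that recruits ATM, had 24.5 CPM in DKO and 34.2 CPM in WT and was 1.40-fold lower (1.25 to 1.57). Its count per Rad50 count was 0.517 in DKO and 0.75 in WT, or 0.689 of the WT balance (0.595 to 0.798).

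With TMM, end joining genes were near even for the Ku pair and lower for the kinase it recruits. Xrcc5 and Xrcc6 encode Ku80 and Ku70, the ring that binds broken ends. Xrcc5 had 58.1 CPM in DKO and 55.0 CPM in WT, and Xrcc6 had 56.8 CPM in DKO and 58.1 CPM in WT. Their balance shifted by 1.08 (0.962 to 1.21). With T cell receptor genes their ratios were 1.225 and 1.135, with both intervals wholly above 1. Prkdc, which encodes the kinase DNA-PKcs, had 45.0 CPM in DKO and 66.7 CPM in WT and was 1.48-fold lower (1.36 to 1.61). The ligase gene Lig4 and the gene of its stabilising partner, Xrcc4, lay on opposite sides of 1. Lig4 was 1.36-fold higher (1.10 to 1.70), with 188 counts in DKO and 151 in WT, and Xrcc4 was 1.21-fold lower (1.07 to 1.37), at 23.5 CPM in DKO and 28.4 CPM in WT. The balance of Lig4 over Xrcc4 shifted 1.65-fold (1.28 to 2.13). The 5 log2 ratios had a median of -0.03, which was above 0 with the scale of total counts (0.02) or of T cell receptor genes (0.18).

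Mismatch and nucleotide excision genes lay close to even ratios with TMM. With T cell receptor genes Msh6, Ercc1 and Ercc2 had ratios of 1.16, 1.27 and 1.10, with intervals wholly above 1. The values that follow are with TMM. Msh6, which recognises mispaired bases, had 57.1 CPM in DKO and 57.2 CPM in WT, a ratio of 0.999 (0.921 to 1.08). Ercc1, a subunit of the nuclease that cuts on the 5′ side of a lesion, had 417 counts in each library and a ratio of 1.10 (0.956 to 1.26). Ercc2, a helicase of the TFIIH complex, had a ratio of 0.946 (0.862 to 1.04). Xpc, the sensor of distorted DNA, had 61.0 CPM in DKO and 67.2 CPM in WT and was 1.10-fold lower (1.02 to 1.19), an interval that held 1 with the scale of total counts or of T cell receptor genes. Of the windows of 50 bases in the transcripts of Ercc2, 29.1% also occur in other genes, mainly its overlapping neighbour Klc3.

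The base excision genes described here were lower in DKO in 5 of 5 cases with TMM, beside 49.8% of all genes. On the scale of T cell receptor genes 4 were lower, beside 28.3% of all genes, and Ung changed sides. On both scales 4 of the 5 had an interval wholly below 1, beside 35.7% of all genes with TMM and 17.5% with T cell receptor genes. The 17 other base excision genes did not share this, with 9 ratios above 1 and 8 below 1 with TMM. Their intervals lay wholly above 1 for 7 and wholly below it for 3, and their median log2 ratio was 0.01. Xrcc1, the scaffold of single-strand break repair, had 37.0 CPM in DKO and 60.9 CPM in WT and was 1.65-fold lower (1.5 to 1.8). Ogg1, which removes oxidised guanine, had 9.6 CPM in DKO and 13.8 CPM in WT and was 1.43-fold lower (1.19 to 1.73). Both were lower by more than counting error, and neither reached 2-fold. Apex1, the endonuclease that cuts at sites without a base, had 61.1 CPM in DKO and 84.0 CPM in WT and was 1.37-fold lower (1.28 to 1.48). Parp1, a sensor of strand breaks, had 142 CPM in DKO and 179 CPM in WT and was 1.26-fold lower (1.2 to 1.33). Ung, which removes uracil from DNA, had a ratio of 0.923 (0.801 to 1.06). The 5 log2 ratios had a median of -0.46, which was below 0 under each of the 4 scalings, nearest to 0 at -0.24 with T cell receptor genes. For Apex1, 51.7% of its windows of 50 bases are shared, mainly with its antisense neighbour (Tmem55b in the files, ratio 1.2), so its value is uncertain.

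The damage signalling genes described here were lower in 6 of 7 cases with TMM, beside 49.8% of all genes, and Chek1 was higher. On the scale of T cell receptor genes 4 were lower, beside 28.3% of all genes, and Atm and Atr changed sides. The interval lay wholly below 1 for 5 of the 7 with TMM, beside 35.7% of all genes. With T cell receptor genes it did for 3, beside 17.5% of all genes, and the intervals of Atm and Mdm2 held 1. Among all 8630 genes at a mean of 10 CPM or more, 3548 had an interval wholly below 1 with TMM. Of the 20 other damage signalling genes, 10 had ratios above 1 and 10 below 1 with TMM. Their intervals lay wholly above 1 for 8 and wholly below it for 7. Chek1, the kinase that ATR activates at stalled forks, had 100 counts in DKO and 58 in WT, or 5.0 CPM against 2.64 CPM, and was 1.88-fold higher (1.36 to 2.66). Chek2, the kinase that ATM activates, had 109 counts in DKO and 208 in WT, or 5.45 CPM against 9.48 CPM, and was 1.74-fold lower (1.37 to 2.21). Per kilobase of exon, Chek1 stood at 0.536 of the level of Chek2 in DKO and at 0.163 of it in WT. That balance shifted 3.29-fold (2.17 to 5.0). For the kinases above them, Atr over Atm, the shift was 1.08-fold with an interval that held 1 (0.972 to 1.2). Atm had 125 CPM in DKO and 143 CPM in WT and was 1.14-fold lower (1.09 to 1.21), and Atr had a ratio of 0.942 (0.862 to 1.03).

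The gene of p53, Trp53, was the most abundant of the 43 per kilobase of exon in both libraries, at 77.9 CPM per kilobase in DKO and 108 in WT. It had 146 CPM in DKO and 201 CPM in WT and was 1.38-fold lower (1.32 to 1.45). Mdm2, the ubiquitin ligase that degrades p53 and is itself a p53 target, had 82.7 CPM in DKO and 99.0 CPM in WT and was 1.2-fold lower (1.12 to 1.28). Since Trp53 was lower by more, the count of Mdm2 per Trp53 count was 0.568 in DKO and 0.493 in WT, a 1.15-fold shift (1.06 to 1.25). Trp53bp1, which favours end joining over recombination at breaks, had 41.4 CPM in DKO and 57.5 CPM in WT and was 1.39-fold lower (1.27 to 1.52). The 4 most abundant genes per kilobase were Trp53, Apex1, Parp1 and Mdm2, in this order in both libraries. The last of the 43 in order was Brca2 in DKO, at 0.466 CPM per kilobase, and Fanca in WT, at 0.0569. For the 7 signalling genes the median log2 ratio was -0.26, and -0.04 with the scale of T cell receptor genes.

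**Figure D4:**
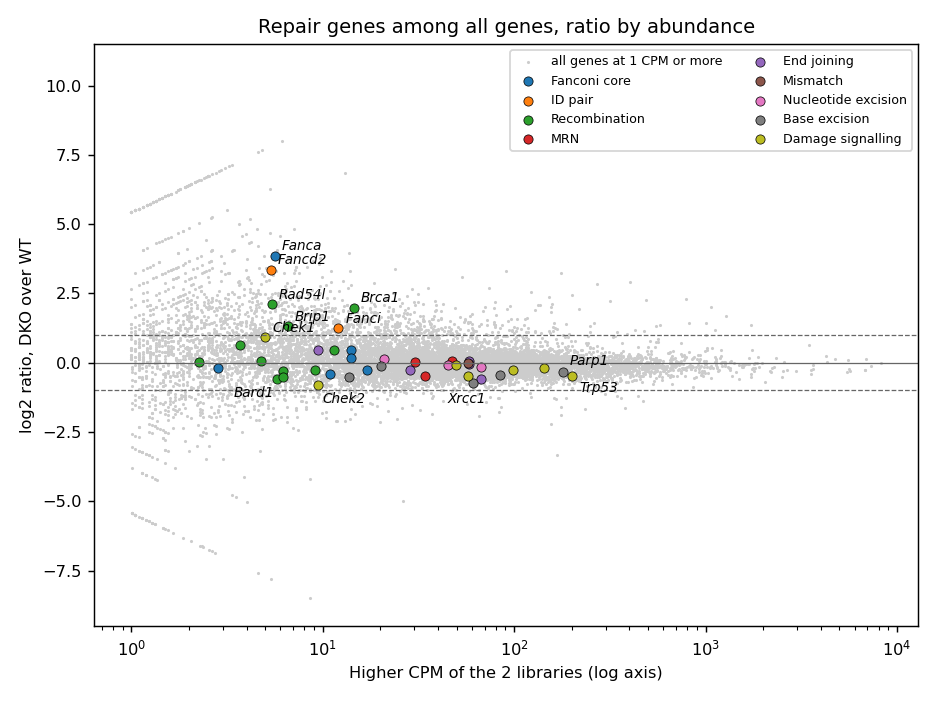
Log2 ratio of DKO over WT against the higher CPM of the 2 libraries on a log axis, for all 11735 genes (grey) and the 43 repair genes (outlined and coloured by role), with dashed lines at 2-fold. The 6 higher genes lie between 5 and 20 CPM, where all genes scatter upward too.

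Genes were grouped by the higher CPM of the 2 libraries, which places a higher gene by its DKO level. By WT level per kilobase of exon, Fanca, Fancd2, Brip1, Rad54l and Brca1 ranked 43, 42, 41, 40 and 38 of the 43 genes. Fanci ranked 32. The shares in the groups below therefore depend on this way of grouping. All 6 higher genes had between 5 and 20 CPM in the library where they were higher. From 1 to 5 CPM 0 of 4 repair genes were higher, with a median log2 ratio of 0.06, beside 35.0% of 1782 genes of all kinds with a median of 0.45. From 5 to 20 CPM 6 of the 19 repair genes were higher, or 31.6%, beside 18.7% of 2398 genes of all kinds. From 20 to 100 CPM 0 of 17 repair genes were higher, beside 4.71% of all genes, and at 100 CPM or more 0 of 3, beside 2.17% of all genes. Below a mean of 10 CPM over both libraries, the median log2 ratio was 0.45 for 19 repair genes and 0.44 for all 3105 genes. At a mean of 10 CPM or more it was -0.17 for 24 repair genes and -0.04 for all 8630 genes.

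Repair genes outside the 43 also held a few higher genes. Of 103 other repair genes with at least 1 CPM, 8 were higher by the 2-fold rule, 0 lower and 95 neither, beside 11.6% higher and 3.6% lower among all genes. Their median log2 ratio was 0.01. Of 24 other recombination genes, 5 were higher. Dna2, a nuclease of end resection, was 2.61-fold higher (2.11 to 3.28) and the helicase gene Recql4 2.04-fold higher (1.51 to 2.79). Rad54b and Gen1, named after their values were seen, were 2.34-fold (1.33 to 4.41) and 3.24-fold (2.00 to 5.60) higher, with only 18 and 22 counts in WT. Polq, a polymerase of an alternative end joining route, was 1.86-fold higher (1.38 to 2.54).

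The other lists held 1 higher gene or none. Of 16 other Fanconi and crosslink genes the higher one was Dclre1a, a crosslink nuclease, at 4.87-fold (3.30 to 7.60). Fance, a core subunit, was 1.72-fold higher (1.51 to 1.97), and Mad2l2 and Rev3l, which encode subunits of translesion polymerase zeta, were 1.60-fold and 1.45-fold lower. Both of these subunit genes thus lay on the lower side, below the 2-fold limit. Of 20 other damage signalling genes the higher one was Clspn, the adaptor through which ATR activates CHEK1, at 3.57-fold (2.85 to 4.53), with 16.2 CPM in DKO and 4.51 CPM in WT. Timeless, a fork protection factor, was 1.64-fold higher (1.43 to 1.89) and Mdm4, a relative and partner of Mdm2, 1.62-fold lower (1.48 to 1.79). Of 17 other base excision genes the higher one was Neil3, at 3.87-fold (2.38 to 6.85), with 72 counts in DKO and 20 in WT, which was named after its value was seen. Other end joining, mismatch and nucleotide excision genes held 0 of 6, 0 of 6 and 0 of 16 past 2-fold. Among these, Pms1 was 1.64-fold higher (1.41 to 1.92) and Ercc6, which serves repair of transcribed genes, 1.51-fold lower (1.35 to 1.69).

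Genes known as p53 targets lay on both sides of an even ratio. Of 21 with at least 1 CPM, 3 were higher by the 2-fold rule, 2 lower and 16 neither, beside 11.6% higher and 3.6% lower among all genes. Their median log2 ratio was -0.05, and 0.16 with the scale of T cell receptor genes. Cdkn1a, the cell cycle inhibitor p21, had 9.25 CPM in DKO and 3.42 CPM in WT and was 2.69-fold higher (2.06 to 3.59). The other higher genes were Dcxr at 3.15-fold (2.49 to 4.05) and Pmaip1, which encodes the death protein NOXA, at 2.28-fold (2.02 to 2.59). The lower ones, named after their values were seen, were Plk2 at 2.94-fold (1.90 to 4.82) and Phlda3 at 2.5-fold (1.69 to 3.85).

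**Figure D5:**
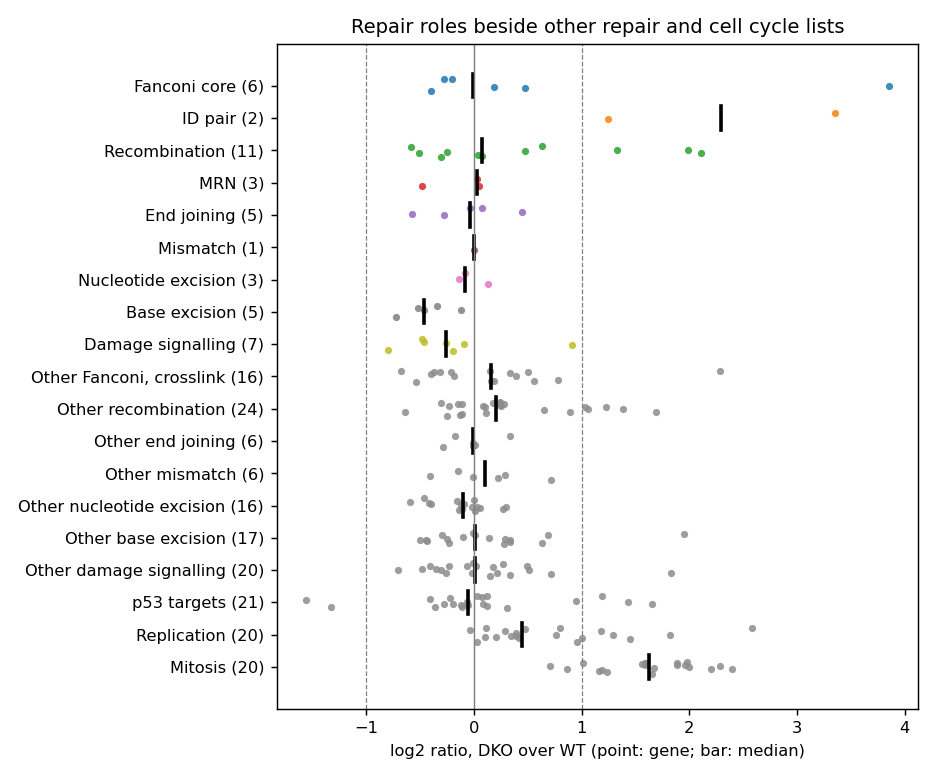
Log2 ratio of DKO over WT for every gene of the 9 roles (coloured, base excision in grey) and of the other repair, p53 target, replication and mitosis lists (grey), with the number of genes in brackets, a bar at each median and dashed lines at 2-fold. The mitosis list has its median at 1.63, above the median of each role except the ID pair at 2.30.

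Genes of cell division were higher in the same library, by more in the mitosis list than in the replication list. Of 20 mitosis genes, 18 were at least 2-fold higher and 0 lower, and their summed level was 620 CPM in DKO and 194 CPM in WT, a ratio of 3.20. Mki67, the marker of cycling cells, had 103 CPM in DKO and 34.2 CPM in WT. Of 20 replication genes, 6 were higher and 0 lower, at a sum of 1332 CPM in DKO and 1067 CPM in WT. Among all genes the same rule found 11.6% higher and 3.6% lower. Relative to the summed mitosis counts, Brca1 differed by a factor of 1.24 (0.965 to 1.62), Rad54l by 1.37 (0.892 to 2.18) and Brip1 by 0.789 (0.572 to 1.10), so these 3 intervals held 1. Fanca, at 4.80 (2.35 to 11.4), and Fancd2, at 3.34 (1.79 to 6.89), lay above it, and Fanci, at 0.742 (0.588 to 0.940), below it. These genes were chosen for being 2-fold higher or more, which kept low factors to the mitosis sum out by choice. Every other gene of the chosen repair set had an interval wholly below 1 to that sum. The highest of those factors were 0.592 (0.423 to 0.834) for Chek1 and 0.488 (0.337 to 0.711) for Rad51c. The summed replication counts had a DKO over WT ratio of 1.25. Genes chosen for being 2-fold higher or more therefore had factors above 1 to that sum by choice. The factors were 12.3 (6.03 to 29.2) for Fanca, 8.55 (4.59 to 17.6) for Fancd2 and 3.52 (2.29 to 5.58) for Rad54l. For Brca1 the factor was 3.19 (2.48 to 4.14), for Brip1 2.02 (1.47 to 2.81) and for Fanci 1.90 (1.51 to 2.40). The part of dividing cells in the higher repair genes was not tested.

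The summed markers of 6 of 7 other cell types were also higher in the DKO library beside these genes. By the 2-fold rule 11.6% of all genes were higher and 3.6% lower. Of 10 myeloid markers 4 were at least 2-fold higher and 0 lower (sum 3313 CPM in DKO, 1279 CPM in WT). Of 8 dendritic cell markers 6 were higher and 0 lower (1466 CPM in DKO, 477 CPM in WT), and of 8 NK cell markers 4 were higher and 0 lower (1759 CPM in DKO, 747 CPM in WT). Of 8 CD4 and FOXP3 T cell markers 6 were higher and 0 lower (261 CPM in DKO, 104 CPM in WT). Plasma cell markers had 2 higher and 1 lower of 6 (549 CPM in DKO, 306 CPM in WT), B cell markers 1 higher and 2 lower of 8 (96.2 CPM in DKO, 138 CPM in WT), and erythroid and platelet markers 3 higher and 0 lower of 5 (34.0 CPM in DKO, 16.3 CPM in WT). The haemoglobin genes Hba-a1 and Hbb-b1 and the NK receptor gene Klra4 were at 0 counts in both libraries, the B cell factor gene Ebf1 was at 0 in DKO, and the red cell gene Epb4.2 was at 0 in WT. CD8 T cell markers summed to 9944 CPM in DKO and 11362 CPM in WT, with 0 of 10 past 2-fold. The part of these cells in the repair gene differences was not tested.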

How the data were processed

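Both deposited tables hold raw read counts by gene symbol, with no normalisation by the authors. Build mm9, HTSeq, TopHat2 2.0.8b and bcl2fastq stand in the submitters' processing notes, with no roles. Neither the annotation nor the strand setting was given in those sources, so overlapping genes on opposite strands cannot be told apart. Of each table's total, 5 rows that name no gene were left out, chiefly non-unique alignments (64.8% in DKO, 66.4% in WT); genes held 30.5% in DKO and 28.5% in WT.

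Counts were scaled by TMM (edgeR 4.0.16, R 4.3.3) to CPM, where 1 read is 0.0500 CPM in DKO and 0.0456 in WT. The ratio used a prior count of 0.5. Its 95% interval came from the DKO share of the summed counts of both libraries by the exact Clopper-Pearson method (scipy 1.17.1). It covers counting error only: the reads carry no molecular identifiers, so they are not independent molecules. A gene was higher or lower at 2-fold or more with an interval that left out 1 and at least 1 CPM in either library. No variation between animals could be fitted with 1 library per genotype. Partner ratios have exact conditional odds ratio intervals. Scripts were tested on simulated data.

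Exon lengths, overlaps and shared 50-base windows came from GENCODE M21 (GRCm38), promoters from RefSeq (GRCm38.p6), neither the mm9 build of the counts. Gene roles, lists and limits were chosen with earlier results of these data known. The partner pairs, the split at a mean of 10 CPM, overlapping neighbours, interval sides under each scaling and ratios to the summed mitosis and replication counts were chosen after the values were seen. Named were all 43 genes, Tgfbr2, Eomes, Cdkn1a, Mki67 and up to 4 genes per other list with the largest ratios at 5 CPM or more, except some that are not reported here. Alternatives were other scalings (total counts, DESeq2 1.42.0 size factors, T cell receptor genes), no minimum or 5 CPM, other limits (1.5-fold, 4-fold), a prior count of 5 and, chosen after seeing the data, the 22 genes without exon overlap or many shared windows.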

Additional observations from a re-analysis of the deposited data

How the results depend on the processing

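The count of 6 higher repair genes was the same under scaling by total counts or DESeq2 size factors, with no minimum and with a minimum of 5 CPM, and was 7 with T cell receptor genes and 8 at 1.5-fold. It was 3 at a limit of 4-fold (Fanca, Fancd2 and Rad54l), and 2 (Brca1 and Brip1) among the 22 genes without exon overlap or many shared windows, where fewer genes were counted. The count of lower genes was 0 at 2-fold and 4-fold and 3 at 1.5-fold. Over all genes, 1361 were higher and 423 lower. These counts were 2072 and 988 at 1.5-fold, 515 and 139 at 4-fold, and 738 and 147 with a minimum of 5 CPM, and with no minimum 693 were lower, which follows from the limits and the number of genes counted. The median log2 ratio of the 43 genes, -0.09, lay between -0.13 (the 22 genes) and 0.13 (T cell receptor genes). Single ratios lay within their counting intervals for 43 of 43 genes under total counts, DESeq2 size factors and a prior count of 5, and for 23 with T cell receptor genes. Of the called genes, 76.3% were higher with TMM and 85.3% with T cell receptor genes. No paired analysis was possible because each genotype has 1 library, and leaving a library out would leave no comparison. The intervals of Fanca and Fancd2, with 8 and 11 counts in WT, are several-fold wide.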
